A study of Mus musculus with 6 samples.

Results

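Nuclear genes of the mitochondrial respiratory chain were followed in a mouse leukemia cell line given an inhibitor of IKK, the kinase that activates NF-kB. The members were the 115 probe sets, of 35512 on the array, whose single annotated symbol starts with Nduf, Uqcr, Cox4, Cox5, Cox6, Cox7, Cox8 or Atp5, or is Sdha, Sdhb, Sdhc, Sdhd or Cyc1. They name 90 of the 19938 genes with a symbol, and 17 of the 90 genes had more than 1 probe set. By complex, 34 genes belong to complex I, 4 to complex II, 9 to complex III, 19 to complex IV and 17 to ATP synthase. A further 7, the Ndufaf genes, were caught by the prefix but encode assembly factors of complex I, which help to build it and are absent from the finished enzyme. Cox7c and Ndufb4, further subunit genes, are not among the members and were not tested here.

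Both groups were the cell line MLL-AF10, labelled as leukemia cells, grown in RPMI medium with serum and WEHI-conditioned medium, a source of interleukin-3. The control group was 3 samples given vehicle, and the other group was 3 samples given 0.5 µM of an IKK inhibitor, and the labels give the compound as the one difference between them. The sources used here do not give the compound's name, the treatment time, whether the line is 1 clone or whether the samples were separate cultures. The p-values therefore rest on the scatter among these 6 samples, which may be technical scatter alone. Total RNA was read on 6 whole-transcript arrays, 1 per sample, whose median intensities lay between 112 and 124. With 3 arrays a group, their number sets the limit on precision.

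The respiratory chain passes electrons from NADH and succinate to oxygen and uses the energy to pump protons across the inner mitochondrial membrane. Complex I takes electrons from NADH and complex II from succinate, both hand them to coenzyme Q, complex III passes them on to cytochrome c, and complex IV delivers them to oxygen. ATP synthase lets the protons flow back and makes ATP. A small set of core subunits is encoded in mitochondrial DNA, while the nuclear genome encodes the rest, and the transcription factors NRF1 and GABP are known to act on many of these nuclear genes.

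Differences between the groups were small in these genes. Of the 90 member genes, 1 was higher and 6 were lower, and 83 did not pass the test. In the same fit over 19847 genes (limma, Benjamini-Hochberg adjusted p under 0.05), 13.9% of all genes were called, 7.1% higher and 6.75% lower. The members' share of 7.78% was thus below that of all genes, and their share of lower calls, 6.67%, was near it. No member changed by as much as 0.5 on the log2 scale, and the median size of the difference was 0.09. The extremes were 0.44 for Cox7a2l and -0.40 for Ndufaf6.

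More members lay below 0 than above it. The log2 fold change was below 0 in 62 of 90 genes (68.9%), against 48.1% of all genes tested. The median was -0.05, against 0.01 over all genes. The 3 inhibitor arrays lay below the 3 vehicle arrays in 29 members (32.2%) and above them in 10 (11.1%). Over all genes these shares were 17.2% and 15.7%. Most members are bright, with 83 of 90 above the median intensity of all genes (161), and the background differs there. Among genes above that median, 53.9% were below 0, 29.5% had all inhibitor arrays below the vehicle arrays and 22.6% had them above. Of the 83 bright members, 71.1% were below 0, 34.9% had all inhibitor arrays below and 12.05% above. On the lower side the members' excess over bright genes was therefore smaller than over all genes. On the higher side their shortfall was larger against bright genes (12.05% against 22.6%) than against all genes (11.1% against 15.7%). The median difference depended on how the arrays were scaled, at -0.07 with quantile normalization and -0.09 with each array centred on its own median, while the medians of all genes were then -0.02 and -0.03.

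**Figure D1:**
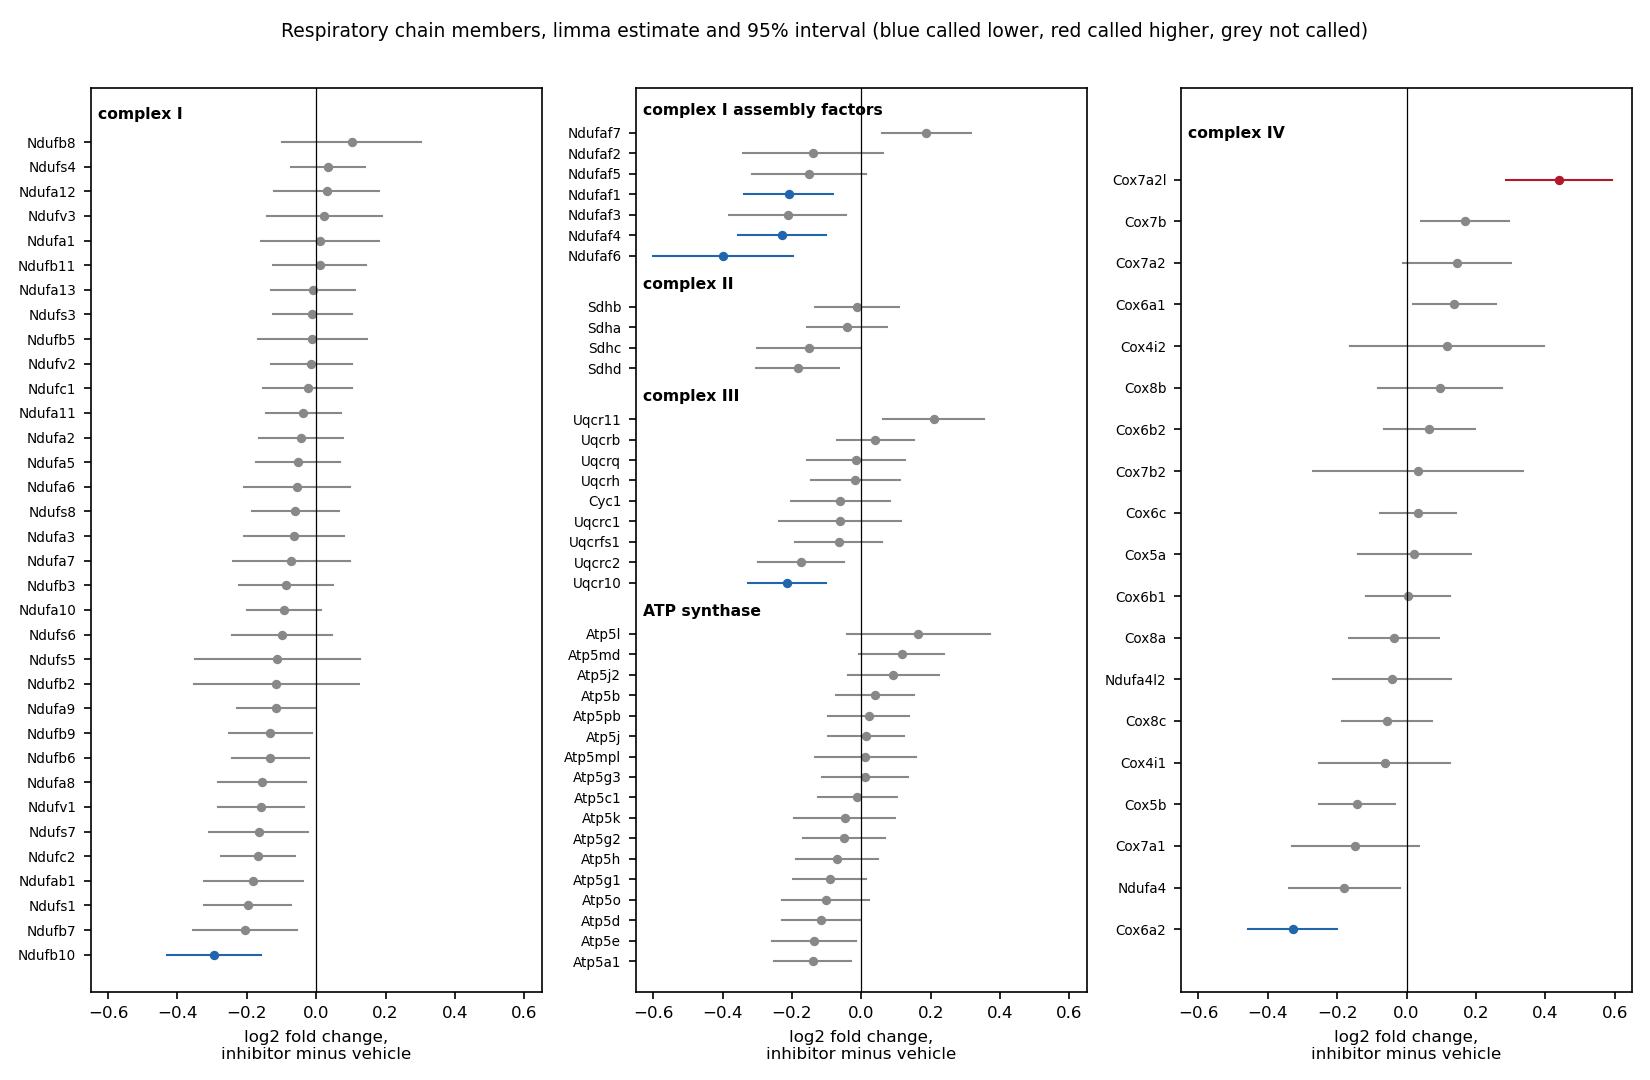
Log2 fold change (inhibitor minus vehicle, horizontal axis) of each of the 90 member genes with its 95% interval from the limma fit, 3 arrays per group, ordered within each complex. Ndufaf6, Cox6a2, Ndufb10, Ndufaf4, Uqcr10 and Ndufaf1 (blue) were called lower and Cox7a2l (red) higher, and 28 of the 34 complex I points lie left of 0.

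Cox7a2l was the single member called higher. It encodes a relative of the complex IV subunit COX7A2 that is known to link complexes III and IV into supercomplexes. Its intensities were 346, 327 and 364 on the vehicle arrays and 472, 443 and 492 on the inhibitor arrays. All 3 inhibitor arrays lay above all vehicle arrays. The mean rose from 346 ± 18.1 to 469 ± 24.9 (SD, n = 3 each). On the log2 scale the difference was 0.44 ± 0.06 (SE), with an adjusted p of 0.00702 by limma. A second probe set of the gene read 184, 202 and 201 with vehicle and 240.0, 250.2 and 247 with the inhibitor. It too was called, with a log2 fold change of 0.33 when each probe set was tested singly (limma adjusted p = 0.0126). The call held without each array in turn, with adjusted p between 0.0105 and 0.0361.

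The members called lower belonged to complex IV, complex I, complex III and, for 3 of the 6, to the assembly factors of complex I. Cox6a2 encodes the form of the complex IV subunit COX6A best known from heart and skeletal muscle. Its intensities were 1521, 1422 and 1541 with vehicle and 1217, 1198 and 1154 with the inhibitor. Every inhibitor array lay below every vehicle array. The mean fell from 1495 ± 63.8 to 1190.0 ± 32.2 (SD, n = 3 each). Its log2 fold change was -0.33 ± 0.05 (SE; limma adjusted p = 0.0108). The adjusted p was 0.052 without vehicle array 3 and between 0.0237 and 0.0437 without any other array.

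Ndufb10, an accessory subunit in the membrane arm of complex I, was the single complex I subunit called. It read 286, 289 and 310.5 with vehicle and 246, 230.4 and 245 with the inhibitor. The groups did not overlap. Its log2 fold change was -0.29 ± 0.06 (SE; limma adjusted p = 0.0184). Leaving out 1 array ended the call for vehicle array 2 (limma adjusted p = 0.0618), vehicle array 3 (0.072) and inhibitor array 1 (0.0578).

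Uqcr10 encodes a small subunit of complex III that lies next to the Rieske protein. It read 701, 679.8 and 717 with vehicle and 601, 598 and 609 with the inhibitor, again with no overlap. The log2 fold change was -0.21 ± 0.05 (SE; limma adjusted p = 0.0277). The call was lost without any 1 array. Dropping vehicle arrays 1, 2 and 3 singly gave adjusted p of 0.0838, 0.0694 and 0.111, and dropping inhibitor arrays 1, 2 and 3 gave 0.0979, 0.0515 and 0.0549.

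**Figure D2:**
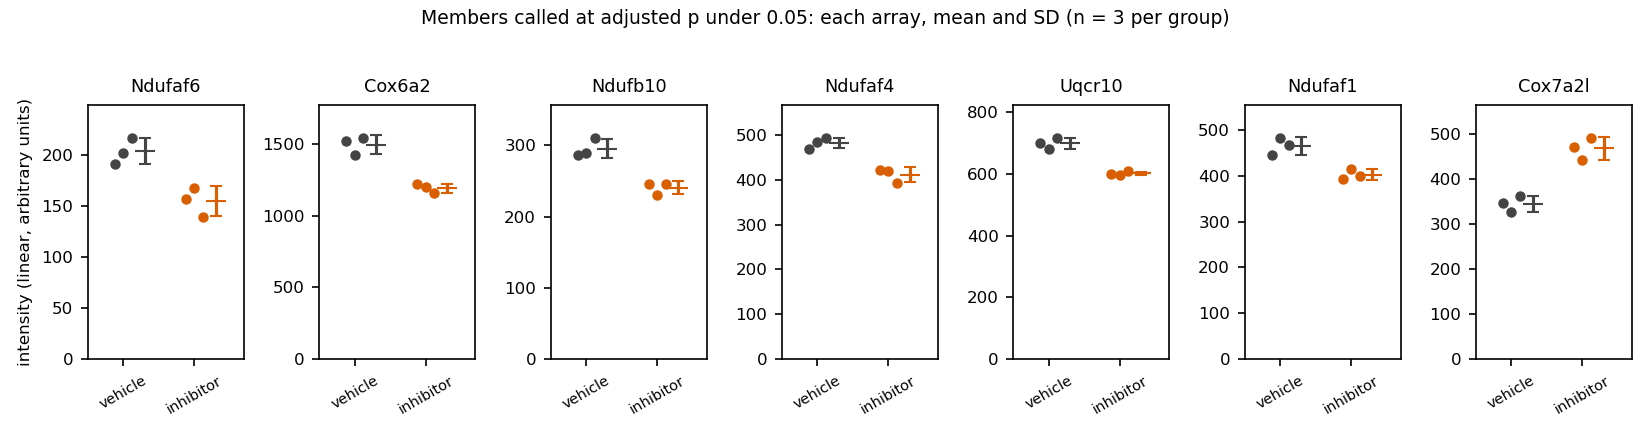
Intensity (linear, arbitrary units, axis from 0) of the 7 called members on each of the 6 arrays, with the mean and SD of each group (n = 3). In every panel the vehicle and inhibitor points do not overlap. Cox7a2l is the one gene that is higher with the inhibitor (35.6%), and the changes of the others run from -24.1% for Ndufaf6 to -13.5% for Ndufaf1.

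Among the assembly factors, Ndufaf6, which is needed for early steps in building complex I, had the largest difference among the members that were lower. Its intensities were 191, 202 and 217 with vehicle and 157, 168 and 139 with the inhibitor, with no overlap. The log2 fold change was -0.40 ± 0.09 (SE; limma adjusted p = 0.0256). Ndufaf4, which acts on the arm of complex I that binds coenzyme Q, read 469.6, 483 and 493 with vehicle and 422, 419.98 and 392 with the inhibitor. The arrays separated by group here too, with a log2 fold change of -0.23 ± 0.05 (SE; limma adjusted p = 0.0339). Ndufaf1, part of the assembly complex for the membrane arm, read 445, 483 and 468 with vehicle and 393, 415 and 399 with the inhibitor. Its log2 fold change was -0.21 ± 0.05 (SE; limma adjusted p = 0.0476).

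These 3 calls depended on single arrays. Ndufaf1 lost its call when any of the 6 arrays was dropped, with limma adjusted p from 0.051 to 0.161. Ndufaf4 kept it when inhibitor array 2 was dropped (0.0471) and lost it for each of the other 5, with adjusted p from 0.0706 to 0.123. Ndufaf6 was called without vehicle array 1 (0.0484) and without inhibitor array 2 (0.0221), and not when vehicle array 2 (0.0882), vehicle array 3 (0.0936), inhibitor array 1 (0.0776) or inhibitor array 3 (0.0573) was dropped. The fold changes stayed below 0 throughout.

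The other 4 assembly factors did not pass. Ndufaf3, the partner of Ndufaf4, read 964, 1058 and 1067 with vehicle and 823, 937 and 908 with the inhibitor (log2 fold change -0.21). Ndufaf7, a methyltransferase that modifies a core subunit, went the other way, from 169.7, 177 and 179 to 198.5, 209 and 192 (0.19, limma adjusted p = 0.0669). The values of Ndufaf5 (-0.15) and Ndufaf2 (-0.14) overlapped between the groups. Over the 7 Ndufaf genes the median was -0.21, and their share of lower calls, 42.9%, stands beside 6.75% of all genes tested. Their lower calls fell to 0 on dropping vehicle array 2, vehicle array 3, inhibitor array 1 or inhibitor array 3, to 1 on dropping vehicle array 1 and to 2 on dropping inhibitor array 2. With each array centred on its median 1 was called lower, Ndufaf6. Among genes above the median intensity, 4 of 6 Ndufaf genes were called lower and 1 higher, against 22.3% and 17.6% of all genes there.

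To show where these genes start, the 250 bases before the start site are printed for 3 called members, from RefSeq on GRCm38.p6. Ndufaf4 and Ndufaf1 are shown because they fell and hold a searched motif, and Cox7a2l because it is the gene that rose. Capitals mark matches. Ndufaf4 lies on the plus strand at chr4:24897833-24898082, Ndufaf1 on the minus strand at chr2:119662835-119663084 and Cox7a2l on the minus strand at chr17:83514334-83514583, each written 5′ to 3′ along its own gene.
Ndufaf4: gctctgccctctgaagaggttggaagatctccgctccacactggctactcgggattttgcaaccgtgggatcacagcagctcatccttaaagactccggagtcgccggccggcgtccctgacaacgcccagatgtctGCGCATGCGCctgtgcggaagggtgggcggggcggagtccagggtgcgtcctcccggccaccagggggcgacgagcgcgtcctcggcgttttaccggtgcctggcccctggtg
Ndufaf1: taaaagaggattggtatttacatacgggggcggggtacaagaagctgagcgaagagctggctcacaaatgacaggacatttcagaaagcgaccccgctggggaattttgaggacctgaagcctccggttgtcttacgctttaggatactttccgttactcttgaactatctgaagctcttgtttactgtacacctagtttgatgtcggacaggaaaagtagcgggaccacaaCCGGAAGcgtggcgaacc
Cox7a2l: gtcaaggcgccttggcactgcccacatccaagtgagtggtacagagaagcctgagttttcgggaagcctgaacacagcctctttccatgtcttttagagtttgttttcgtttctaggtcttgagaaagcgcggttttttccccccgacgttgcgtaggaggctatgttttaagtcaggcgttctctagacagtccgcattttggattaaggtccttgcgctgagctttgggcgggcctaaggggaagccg

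The windows were searched on both strands for GCGCANGCG (an NRF1-type element), CCGGAAG (the core read by ETS factors such as GABP), AANATGGCG (a YY1-type element) and GGGA and TTCC with any 2 bases between them (an NF-kB-type element). A window was found for 73 of the 90 members. The NRF1-type element was present in 14 of these 73 (19.2%), against 5.86% of the 27025 genes with such a window. The ETS core was present in 13 (17.8%) against 7.83%, the YY1-type element in 3 (4.11%) against 1.29% and the NF-kB-type element in 1 (1.37%) against 1.36%. The 27025 genes were not limited to those tested on the array or to bright genes, as most members are. These shares are therefore not matched for expression. In the Ndufaf4 window the capitals are 2 overlapping NRF1-type matches, 1 on each strand, the first beginning 113 bases before the start. In the Ndufaf1 window they are an ETS core that begins 18 bases before it, and in the Cox7a2l window none of the 4 strings was found. Of the 4 members called lower that have a window, 1 holds the NRF1-type element and 1 the ETS core, and of the 68 not called 13 and 12 do. A match is a string of letters and not a measured binding site.

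Most complex I subunits lay on the lower side. Of 34 genes, 28 were below 0, with a median of -0.07 and a range from -0.29 to 0.10. The inhibitor arrays lay below the vehicle arrays in 12 of them (35.3%) and above in 1, Ndufs4 (0.03, named after its value was seen). Among genes above the median intensity, where all 34 lie, 29.5% had all inhibitor arrays below, which is near the share in complex I. All inhibitor arrays lay above in 22.6% of those genes, against 2.94% in complex I. Below 0 were 53.9% of those genes, against 82.4% in complex I. With median centring 33 of the 34 were below 0 and the median was -0.10. That scaling moved all genes down as well. Of all genes tested 57.95% were then below 0, against 48.06% in the main fit, and their median was -0.03. All 6 core subunits among the members, which carry the flavin or the iron-sulfur clusters or form the coenzyme Q site, were below 0, and none was called. Ndufs1, the largest iron-sulfur subunit, read 617, 616 and 629 with vehicle and 529.9, 570.1 and 524 with the inhibitor, a log2 fold change of -0.20 (limma adjusted p = 0.053). It was called without inhibitor array 2 (0.0318). Ndufv1, which binds NADH and the flavin, read 661, 719 and 702 with vehicle and 611, 630.3 and 621 with the inhibitor (-0.16, limma adjusted p = 0.0974), and Ndufs7, which carries the last cluster before coenzyme Q, had a difference of -0.17 (0.13). The groups of these 3 did not overlap. Ndufs8 (-0.06), Ndufv2 (-0.01) and Ndufs3 (-0.01) had overlapping groups.

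Among the accessory subunits of complex I, 1 of 28 was called, and 22 were below 0. Over all 34 subunits, the 1 lower call became 10 among genes above the median intensity (22.3% of all genes there were called lower). It became 10 when the prior was robust and followed intensity, 9 with array weights and 3 with quantile normalization. Of all 19847 genes, 2220, 2202 and 1633 were called lower in these last 3 fits. No complex I subunit was called higher in any of the 4 fits. Ndufc2 read 3262, 3318 and 3322 with vehicle and 2993, 2920.3 and 2903 with the inhibitor, a log2 fold change of -0.17 (limma adjusted p = 0.0543). The groups did not overlap. Ndufab1, the mitochondrial acyl carrier protein that also sits in complex I, had 2 probe sets that differed in call. The brighter one had a log2 fold change of -0.18 (adjusted p = 0.104) and the other -0.27 (adjusted p = 0.0229) when each was tested singly by limma.

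Complex II, the succinate dehydrogenase that also serves the citric acid cycle, had 4 members and no call. Sdhd, a membrane anchor, read 1087, 1067 and 1119 with vehicle and 942, 997 and 944 with the inhibitor, a log2 fold change of -0.18 (limma adjusted p = 0.0575). Without inhibitor array 2 it was called (0.0482). The other anchor, Sdhc, read 1865, 1836 and 1742 with vehicle and 1662, 1720 and 1523 with the inhibitor (-0.15). Neither anchor's groups overlapped. The catalytic subunits did overlap, with -0.04 for the flavoprotein gene Sdha (95% interval -0.16 to 0.08) and -0.01 for the iron-sulfur gene Sdhb (-0.13 to 0.11).

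In complex III the electron-carrying subunits showed small differences. The log2 fold change was -0.06 for Cyc1, the cytochrome c1 gene (95% interval -0.20 to 0.08), and -0.07 for Uqcrfs1, the Rieske iron-sulfur protein gene (-0.19 to 0.06). Of the core protein genes, Uqcrc1 stood at -0.06, and Uqcrc2 read 2580.3, 2516 and 2638 with vehicle and 2369, 2291 and 2195 with the inhibitor, with no overlap (-0.17, limma adjusted p = 0.0742). Over the 9 genes the median was -0.06. The small subunit gene Uqcr11, named after its value was seen, read 985, 1094 and 1056 with vehicle and 1147, 1234 and 1239 with the inhibitor (0.21, adjusted p = 0.073 by limma), so that Uqcr10 and Uqcr11 stood on opposite sides of 0.

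Complex IV was split, and no direction is given for it. Of its 19 genes, 8 were below 0 and 11 above, with a median of 0.02 that became -0.01 with quantile normalization and with median centring. Among the 10 subunit genes of wide expression none was called. Cox4i1 (-0.06), which encodes the main form of subunit 4, and Cox5a (0.02) overlapped between groups. Cox5b did not, at 2235, 2259 and 2339 with vehicle and 2087, 2047 and 2054 with the inhibitor (-0.14, limma adjusted p = 0.0951). Ndufa4, long counted with complex I and now placed in complex IV, read 709.8, 753 and 713 with vehicle and 599, 633 and 693 with the inhibitor (-0.18, adjusted p = 0.14 by limma). Cox7b, Cox6a1 and Cox7a2, named after their values were seen, had inhibitor arrays that all lay above the vehicle arrays, with 0.17, 0.14 and 0.15. A second, dimmer probe set of Cox7b overlapped between the groups (0.12).

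Besides Cox6a2, the complex IV genes known for expression in particular tissues did not pass. Cox7a1, the muscle form of COX7A, had a log2 fold change of -0.15 (95% interval -0.33 to 0.04). Cox4i2, the form of subunit 4 known from lung, had 0.12 (-0.16 to 0.40). For Cox8b, Cox6b2, Cox8c and Ndufa4l2 the values were 0.10, 0.07, -0.06 and -0.04, and for Cox7b2, the dimmest member, 0.03. The groups of these 7 genes overlapped. The array gives no detection call, so whether these dim probe sets measured RNA is not known.

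ATP synthase had no call among 17 genes, and its median of -0.01 lay near that of all genes. At an unadjusted p under 0.05 by limma 3 of 17 were lower and none was higher, against 13.9% and 13.3% of all genes. Among genes above the median intensity 3 were called lower, against 22.3% of all genes there. With an intensity trend and robust prior 3 were lower and 1 higher, while 2220 and 1979 of all 19847 genes were. The inhibitor arrays lay below the vehicle arrays in 6 genes (35.3%) and above them in 3, against 29.5% and 22.6% of genes above the median intensity. In the catalytic head, Atp5a1, the alpha subunit gene, read 2699, 2672 and 2647 with vehicle and 2358, 2443 and 2473 with the inhibitor (-0.14, limma adjusted p = 0.1), without overlap. Atp5e (-0.14) and Atp5d (-0.12), the epsilon and delta subunit genes, named after their values were seen, did not overlap between groups either. Atp5b, the beta subunit gene, stood at 0.04 (95% interval -0.07 to 0.15) and Atp5c1, the gamma subunit gene, at -0.01 (-0.13 to 0.10). Atp5o, which holds the head to the stalk, read 1020.0, 1012 and 1029 with vehicle and 914, 1002 and 936 with the inhibitor (-0.10). Of the 5 small membrane subunit genes 4 were above 0 (3 with median centring), and 3 of them had inhibitor arrays all above the vehicle arrays. These 3, named after their values were seen, were Atp5l (0.16), Atp5md (0.12) and Atp5j2 (0.09). For Atp5l only the brightest probe set separated the groups, narrowly, with the highest vehicle array at 628.4 and the lowest inhibitor array at 630.4. Its other probe sets overlapped between the groups.

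Where a gene had several probe sets, they mostly moved alike. In 14 of 17 genes all probe sets had the same sign. The 6 probe sets of Atp5l ranged from 0.16 to 0.19, and the 3 of Uqcrb, named after its values were seen, from 0.04 to 0.17. The exceptions were Atp5pb (-0.06 and 0.02), Ndufb11 (-0.03 and 0.01) and Ndufs3 (-0.01 and 0.01), all near 0. Of the 115 probe sets tested singly, 2 were called higher and 7 lower. Respiratory chain genes have many processed pseudogenes, and probe sets that read near-identical copies cannot be told apart here, so genes with several probe sets are uncertain.

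Other genes that build and serve the chain were described from lists of their own. Of 43 assembly factor genes whose symbols fall outside the prefixes, 14 were lower (32.6%, against 6.75% of all genes) and 2 higher, and the median was -0.12. Among genes above the median intensity, 19 of 38 were lower and 3 higher, against 22.3% and 17.6% of all genes there. Timmdc1, an assembly factor of complex I, read 1097, 1124 and 1126 with vehicle and 836, 887 and 814 with the inhibitor, with no overlap (-0.40 ± 0.05 SE, limma adjusted p = 0.00468). Acad9, which works with Ndufaf1, fell by 0.33 and the complex III factor gene Uqcc1 by 0.32 on the log2 scale. Coa6, which helps to deliver copper to complex IV, rose, from 306, 289 and 266 to 421, 388 and 462 (0.56 ± 0.08 SE, limma adjusted p = 0.00749). Lower calls in this list numbered 3, 2 and 2 on dropping vehicle arrays 1, 2 and 3, and 2, 13 and 6 on dropping inhibitor arrays 1, 2 and 3, while higher calls numbered 1, 1, 1, 1, 2 and 2.

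The list of regulators of transcription of nuclear and mitochondrial respiratory genes held 22 genes. It also holds genes for the upkeep of mitochondrial DNA, such as Twnk and Ssbp1, which are among the calls. Of the 22 genes, 6 were lower (27.3%, against 6.75% of all genes) and none higher, with a median of -0.15. Among genes above the median intensity, 10 of 17 were lower and none higher, while 22.3% of all genes there were lower. Pprc1, a coactivator of the PGC-1 family, read 525, 518 and 544 with vehicle and 415, 421 and 424 with the inhibitor (-0.33 ± 0.05 SE, limma adjusted p = 0.00609). The mitochondrial helicase gene Twnk fell by 0.41, the mitochondrial single-strand binding protein gene Ssbp1 by 0.26 and Gabpb1, a subunit of GABP, by 0.22 on the log2 scale. The factors best known from this pathway, named after their values were seen, did not pass, with -0.17 for Nrf1, 0.0007 for Gabpa, -0.32 for Tfam and -0.01 for Ppargc1a. Tfam (limma adjusted p = 0.0523) and Nrf1 (0.0738) were near the threshold, and their groups did not overlap. Lower calls in the list were 4, 2 and 1 on dropping vehicle arrays 1, 2 and 3, and 1, 6 and 4 on dropping inhibitor arrays 1, 2 and 3.

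Of 17 genes of the citric acid cycle and pyruvate dehydrogenase, 4 were lower (23.5%, against 6.75% of all genes) and none higher, with a median of -0.11. They were the fumarase gene Fh1 (-0.42), Idh3a (-0.39), Suclg2 (-0.26) and Pdha1 (-0.23). All 17 lay above the median intensity. In the fit of such genes 8 were lower and 1 higher, against 22.3% and 17.6% of all genes there. Of 13 genes for cytochrome c and coenzyme Q synthesis, Coq3 (-0.58), Coq2 (-0.30) and Coq5 (-0.29) were lower and Coq10a (0.30) was higher, with a median of -0.13. The shares were 23.1% lower and 7.69% higher, against 6.75% and 7.1% of all genes, and Coq10a was not called with median centring. Above the median intensity 6 of 12 in this list were lower and 2 higher. On dropping 1 array at a time, in the same order, the citric acid cycle list had 1, 1, 1, 1, 3 and 2 lower calls and the coenzyme Q list had 1, 0, 1, 1, 4 and 1 lower and 0, 1, 0, 1, 2 and 0 higher calls. None of 9 carriers and channels of ATP export passed, at a median of -0.01, and the smallest p there was that of Slc25a31 (-0.27, limma adjusted p = 0.186). Whether these lists differ from the members was not tested. Atpif1 (-0.04) and Higd2a (-0.02), further listed genes outside the prefixes, did not pass.

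**Figure D3:**
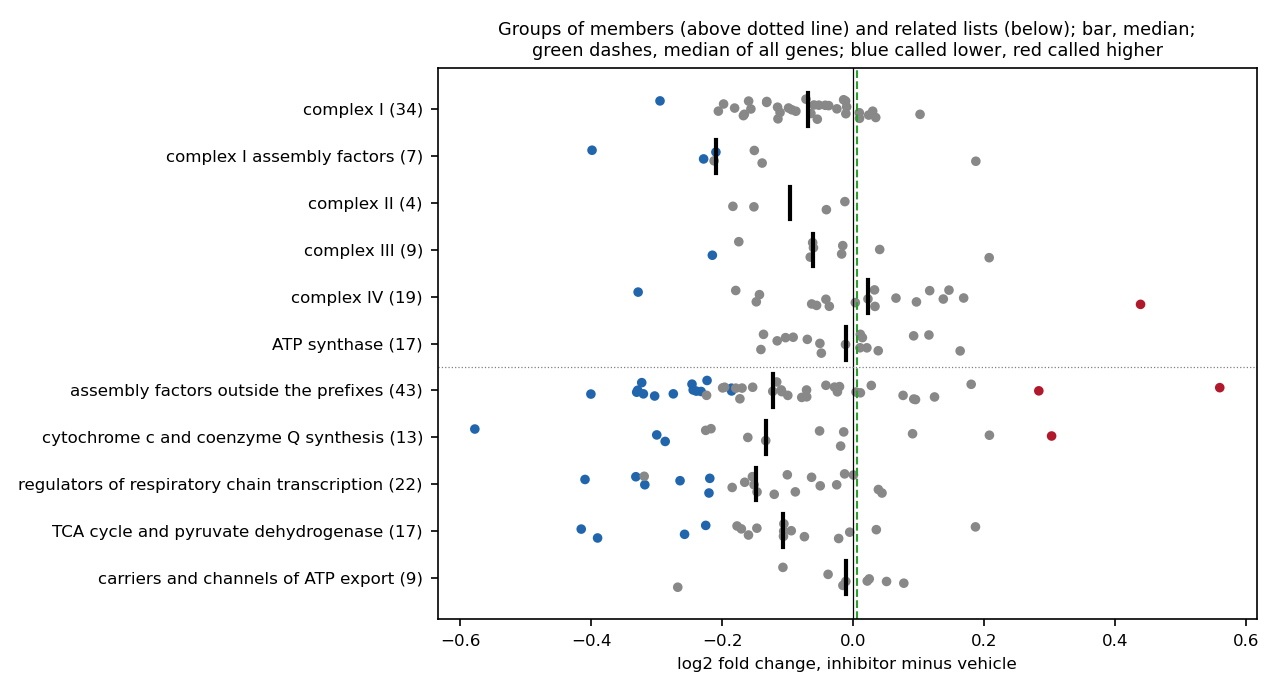
Log2 fold change (inhibitor minus vehicle, horizontal axis) of single genes in each member group and in the related lists, with the number of genes in brackets, a black bar at the median and a green dashed line at the median of all genes (0.01). The bars lie between -0.10 and 0.02 for complexes I to IV and ATP synthase, at -0.21 for the Ndufaf genes, and at -0.12, -0.13, -0.15 and -0.11 for assembly factors, cytochrome c and coenzyme Q, regulators, and the citric acid cycle.

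The mitochondrially encoded subunits are represented by the symbol COX2 alone, a core subunit of complex IV, with 2 probe sets. The brighter read 3430.4, 3515 and 3950 with vehicle and 4541, 4039 and 4904 with the inhibitor, with no overlap, and did not pass (0.31, limma adjusted p = 0.0712 with each probe set tested singly). The other gave the same log2 fold change, 0.31. The nuclear genome holds copies of mitochondrial DNA, so what these probe sets read is uncertain.

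The cells expressed the leukocyte and myeloid genes Ptprc and Spi1 at mean intensities of 1725 and 2661 with vehicle. Monocyte and macrophage markers moved with the treatment. All 8 listed were higher, with a median of 1.33, and their summed intensity was 6148 to 6375 with vehicle and 13086 to 14070 with the inhibitor. Over all genes 7.1% were called higher. The marker lists were chosen with earlier results of these data known, so these 8 calls are not independent evidence of a shift. Mpo (-2.62) and Kit (-0.54), genes of immature myeloid cells, fell, while Csf1r (1.23), Itgam (0.69) and Ptprc (0.19) rose among 7 leukemic myeloid markers. Csf1r and Itgam are on both marker lists. On dropping 1 array at a time, 2 of the 7 were called higher each time and 1 or 2 lower. None of 4 T cell, 2 B cell, 1 erythroid or 4 stromal markers passed. The B cell gene Cd79a had groups that did not overlap (-0.33, limma adjusted p = 0.0869), and 1 B cell marker was called lower with quantile normalization and with median centring. The markers' intensities lay between 21.2 and 289, with summed levels of 440 to 529 and 413 to 519.7 for T cell markers in the vehicle and inhibitor groups, 76.6 to 88.3 and 64.5 to 77.5 for B cell, 66.1 to 71.4 and 66.4 to 75.1 for erythroid, and 548 to 685 and 535 to 649 for stromal markers. No listed marker was at the floor of 16 on all arrays. The part of the myeloid shift in the members' values was not tested, and in such bulk RNA fewer cells of a type and less RNA per cell cannot be told apart.

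How many members were called depended on the fit. Among genes above the median intensity, 28 of 83 members were called, 5 higher and 23 lower, against 39.8% of all genes there, a member share of 33.7%. With an intensity trend and robust prior, 30 of 90 were called, 6 higher and 24 lower, a share of 33.3% against 21.2% of all genes. Of 19 other fits, the members' share was below that of all genes in 17 and above it in 2, the intensity trend and the array weights (23.3% against 21.8%). The members' median lay below 0 and below the median of all genes in all 19.

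**Figure D4:**
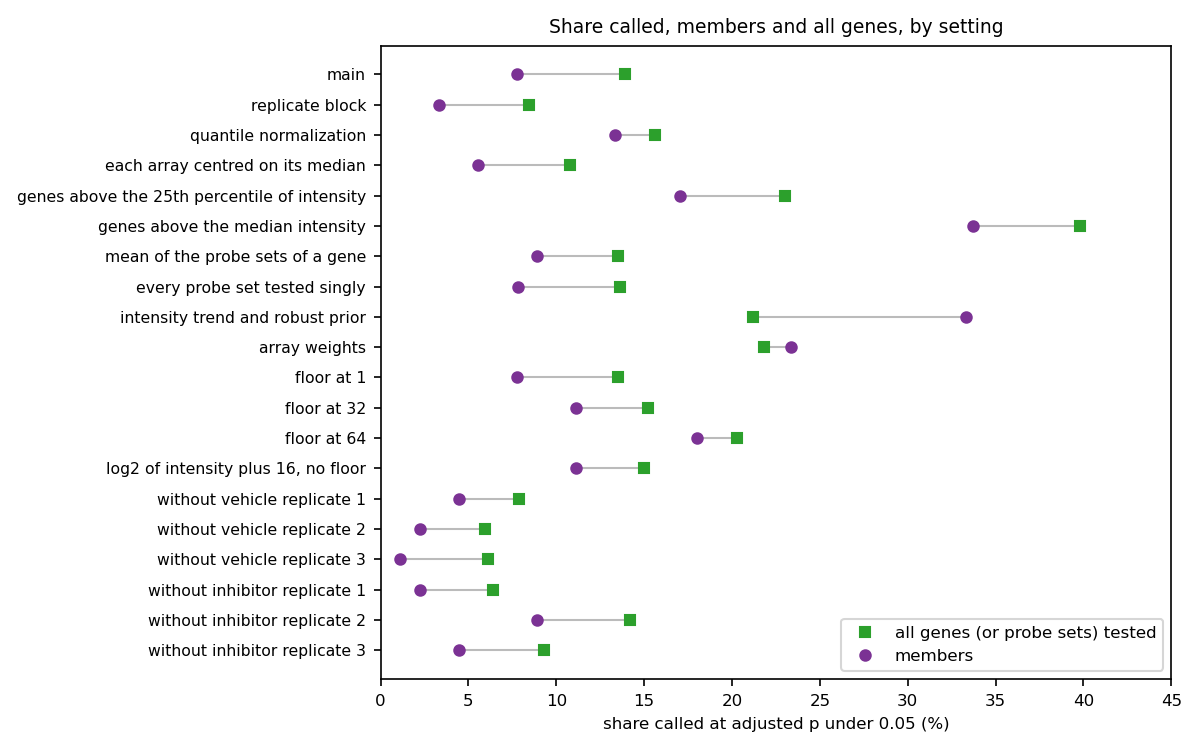
Share called at adjusted p under 0.05 (percent, horizontal axis) for the members (circles) and for all genes or probe sets tested (squares) in the main fit and 19 alternatives. The circle lies left of the square in all but the intensity trend and the array weights, and it ranges from 1.11% without vehicle array 3 to 33.7% among genes above the median intensity.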

How the data were processed

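The deposited table gives 1 intensity per probe set and array. Per the submitters' processing notes, the authors used Affymetrix Expression Console to obtain the intensities. The sources used here do not give its version, summarization, background correction or normalization. Values were linear (0.71 to 8186), were set to at least 16 (5.94% of values were lower) and taken as log2. Probe sets were named by the platform annotation, with symbols updated through Entrez numbers. The probe set with the highest mean stood for a gene, and 91 genes at the floor on every array were not tested. All 90 members were above it on every array.

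The test was limma 3.58.1 (lmFit and eBayes under R 4.3.3), 2-sided and without covariates, over 19847 genes. SE and intervals are those of the fit, and SD those of intensities. Tested on simulated arrays of those genes, it called 53 of 100 given a log2 difference of 0.5, 93 of 100 given 1 and 6 unchanged genes. Named were all called members, the 10 smallest p, fixed core subunits and isoforms, genes with discordant probe sets and up to 4 genes per other list with the smallest p. Members, complexes and lists were chosen with earlier results of these data known. Alternatives were a replicate block, other scaling, filters, floors, probe set rules, priors, weights, threshold, and leaving out each array.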

Additional observations from a re-analysis of the deposited data

How the results depend on the processing

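The limits here are 3 arrays per group and differences mostly under 0.2 on the log2 scale. The simulated arrays had 100 genes changed by 0.5 and 100 by 1, far fewer than the 2749 called here. Their recovery therefore does not measure how many changes were missed among the members. Over all genes, 2749 calls became 4199 with an intensity trend and robust prior, 4334 with array weights, 984 at an adjusted p under 0.01 and 1183 to 2810 without 1 array. Members called higher, 1 over all arrays, numbered 4 above the 25th percentile of intensity, 5 above the median intensity, 2 with every probe set tested singly, 6 with the intensity trend, 3 with array weights, 4 with a floor at 64 and 1 without each array in turn. Members called lower, 6 over all arrays, numbered 11 with quantile normalization, 11 above the 25th percentile, 23 above the median intensity, 24 with the intensity trend, 18 with array weights, 12 with a floor at 64, 0 at an adjusted p under 0.01 and 0 to 7 without 1 array (0 without vehicle array 3). At that stricter threshold Cox7a2l remained. The members' median was -0.067 with quantile normalization, -0.089 with median centring, -0.041 over single probe sets and -0.052 to -0.045 without 1 array. The cause of these shifts was not tested. With the replicate number as a block, 1679 genes, 1 member higher and 2 members lower were called, with 0 of the Ndufaf genes. Whether the numbers pair the samples is not known. The correlations of same-numbered arrays' deviations were 0.241, 0.133 and -0.0935, and 3 of 6 arrays correlated best with their own number. Deviations from the mean of only 3 arrays cannot settle it. For the 39 members named by rule, no call changed direction in the refits, where 651 results kept their side of the threshold, 53 passed it newly and 31 no longer passed.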

Other observations

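Some probe sets of respiratory chain genes carry several symbols and entered no comparison. The 3 for Cox7c, which share a symbol with the copy Gm12338, had mean intensities of 4659, 4757 and 4661 with vehicle and 4789, 4845 and 4797 with the inhibitor. The 2 for Ndufb4 and Ndufb4b went from 2865 ± 15.95 to 2676 ± 25.6 and from 3176 ± 13.5 to 2979.9 ± 49.0 (SD, n = 3 each), with no overlap between groups, and were not tested. The 1 for Ndufs5 and its pseudogene read 336 ± 29.7 and 347 ± 6.51 (SD, n = 3 each).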
